A study of Mus musculus with 6 samples.

Results

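The Hippo pathway genes and YAP targets described here are 10 genes listed by name, with earlier results of these data already known. They are the coactivators Yap1 and Wwtr1 (the gene of TAZ), their DNA-binding partner Tead1, the kinases Lats1 and Lats2, and the target genes Ctgf, Cyr61, Ankrd1, Amotl2 and Ajuba. Reads were deposited under 9 of these names, out of 14762 gene annotations in the series, and all 9 were among the 11125 genes with enough reads to be tested. Ajuba was listed under its older symbol Jub. Lats1 had no annotation in any of the libraries and is described from reads that match its transcript.

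In the Hippo pathway, the kinases MST1 and MST2 act with SAV1 and MOB1 to switch on LATS1 and LATS2. The LATS kinases phosphorylate YAP and TAZ, which holds them in the cytoplasm or leads to their breakdown. When the kinases are off, YAP and TAZ enter the nucleus, bind TEAD proteins and raise transcription of target genes such as Ctgf and Cyr61. In mammary epithelium and carcinoma the pathway is known to respond to cell density, adhesion and stiffness of the matrix. This regulation acts mainly on the proteins, which were not measured.

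Mvt1 cells are mouse mammary carcinoma cells, grown as a line, of the FVB/N strain. It was stained for the surface protein CD24 and sorted by FACS into CD24- cells, without the protein on their surface, and CD24+ cells. Both groups were grown adherent in DMEM with fetal bovine serum, penicillin and streptomycin, with no other treatment named, and RNA of 3 plates of each group was sequenced. Separate sorts are not described, so the replicates are plates, and the SDs and p-values cover the variation among plates only. Since RNA came from bulk cells, a gene active in fewer cells and a gene with less RNA per cell cannot be told apart.

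The libraries held 9046025 to 25692147 mapped reads, of which 71.8% to 74.3% were annotated to a gene. CD24+ replicate 1 was the shallowest. Cd24a, the gene of the sorted marker, had 12.1, 11.5 and 6.99 CPM in CD24- replicates 1, 2 and 3 and 73.4, 85.6 and 72.5 CPM in the CD24+ replicates, where CPM (counts per 1000000 gene reads) was computed after TMM scaling. Its log2 fold-change was 2.91 (edgeR, SE 0.17, adjusted p = 5.4e-07). SE is a standard error derived from the edgeR F test, the size of the log2 fold-change divided by the square root of F. Among 6 luminal epithelial markers, Krt8, Krt18 and Krt19 fell in CD24+ cells and the others, Krt7, Epcam and Cdh1, stayed under 1 CPM in every library. The summed level of the 6 was 1848 to 2042 CPM in CD24- cells and 759 to 903 CPM in CD24+ cells. The 4 myoepithelial markers summed to 0.105 to 1.04 CPM against 6.50 to 14.0 CPM, mostly Acta2, with Krt5 and Krt14 under 1 CPM throughout. The fibroblast markers summed to 4.17 to 8.53 against 10.4 to 14.99 CPM, the immune markers, nearly all Cd68, to 43.4 to 76.1 against 7.17 to 9.44 CPM, and the endothelial markers to 1.69 to 2.56 against 0.157 to 0.787 CPM. Ptprc, Csf1r, Pecam1 and Kdr stayed under 1 CPM in every library. These levels are by deposited annotation. Reads of any annotation in an Acta2 transcript came to 49.5 to 57.5 CPM in CD24- and 62.7 to 76.6 CPM in CD24+ cells. Those in a Csf1r transcript came to 11.2 to 16.6 and 9.92 to 11.1 CPM. Reads that also match other genes were not left out of these counts. On reads that match Acta2 and no other GENCODE gene, its log2 fold-change was 3.91 (edgeR, adjusted p = 3.3e-04), beside 3.87 by deposited annotation. Csf1r was not among the genes tested on such reads. The part of these markers in the results below was not tested.

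The sequences before the start sites are shown because TEAD proteins bind the letters CATTCC, which read GGAATG on the opposite strand. In the RefSeq table of promoters (GRCm38.p6, from 250 bases before to 50 bases after each start) 8 of the 10 genes had an entry, with none for Ctgf or Tead1. These letters, on either strand, stood in 7 of the 8 genes and in 16.6% of all 27025 genes with an entry. The exception was Lats1, and in Lats2 the only match began after the start site. The match is a description of the letters and does not show that TEAD binds there. Capitals mark the matched letters, and each stretch is written on the strand of its gene.
Cyr61, chr3:145649986-145650235, minus strand: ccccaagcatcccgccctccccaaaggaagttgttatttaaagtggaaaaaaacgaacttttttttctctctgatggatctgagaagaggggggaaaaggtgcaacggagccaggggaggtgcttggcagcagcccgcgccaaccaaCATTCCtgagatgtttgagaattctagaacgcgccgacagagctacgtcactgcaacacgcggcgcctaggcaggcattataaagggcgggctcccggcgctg
Ajuba, chr14:54577662-54577911, minus strand: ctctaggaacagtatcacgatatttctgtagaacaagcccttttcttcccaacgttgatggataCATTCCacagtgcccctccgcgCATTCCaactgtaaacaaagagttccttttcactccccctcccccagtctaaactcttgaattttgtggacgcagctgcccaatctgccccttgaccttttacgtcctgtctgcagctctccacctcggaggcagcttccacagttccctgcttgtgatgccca
Amotl2, chr9:102717727-102717756, plus strand: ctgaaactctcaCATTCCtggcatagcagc
Ankrd1, chr19:36120037-36120066, minus strand: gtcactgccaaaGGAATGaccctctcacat
Ankrd1, chr19:36119950-36119979, minus strand: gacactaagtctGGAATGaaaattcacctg
Yap1, chr9:8004720-8004749, minus strand: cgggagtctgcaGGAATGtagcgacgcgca
Wwtr1, chr3:57576029-57576058, minus strand: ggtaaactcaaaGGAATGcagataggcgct

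The first base of the match lay 103 bases before the start in Cyr61, 65 in Amotl2, 141 in Yap1 and 136 or 170 in Wwtr1, whose table entries give alternative starts. Ankrd1 held the letters at 210 and 123 bases before its start and Ajuba at 186 and 164. The other Hippo components, listed below, held the letters in 11 of 31 genes with an entry and the other YAP targets in 3 of 16.

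Compared per length of transcript, Cyr61, a secreted matricellular protein, stood far above the other genes. Reads inside 1 GENCODE M21 transcript of each gene were counted whatever their annotation and divided by its length, which gave 277, 284 and 321 reads per kb of transcript and 1000000 gene reads (RPKM) for Cyr61 in CD24- cells and 296, 259 and 342 in CD24+ cells. No other gene of the set passed 107 RPKM in any library. Yap1 (70.7 ± 1.95 RPKM in CD24- and 62.8 ± 0.606 in CD24+ cells, SD, n = 3 each) lay above Wwtr1 (46.7 ± 1.74 and 44.6 ± 1.41) with no overlap in either group. Ankrd1, a nuclear ankyrin-repeat protein, overlapped Yap1 in both groups, at 74.7 ± 27.7 and 63.8 ± 10.0 RPKM. Tead1 followed Wwtr1 without overlap, at 30.97 ± 1.83 RPKM in CD24- and 36.6 ± 3.33 RPKM in CD24+ cells.

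The order of the remaining genes differed between the groups. In CD24- cells, where Ctgf overlapped Tead1, Ctgf (26.05 ± 5.71 RPKM), Lats1 (25.0 ± 2.08), Ajuba (22.4 ± 6.54), Lats2 (20.3 ± 7.52) and Amotl2 (17.2 ± 6.16) each overlapped the next in that order. In CD24+ cells Amotl2 (34.8 ± 2.52 RPKM), Ajuba (33.7 ± 2.21), Ctgf (32.4 ± 5.41) and Lats2 (27.7 ± 0.833) each overlapped the next as well, and Lats1 (23.6 ± 1.53) lay below all of them. Amotl2 thus had the lowest mean level of the set in CD24- cells, while in CD24+ cells it overlapped Tead1. The order of genes depends on the transcript taken for each. In CD24- replicate 1 this transcript held 552 of 600 transcript reads of Ctgf and 1103 of 1296 of Ankrd1.

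**Figure D1:**
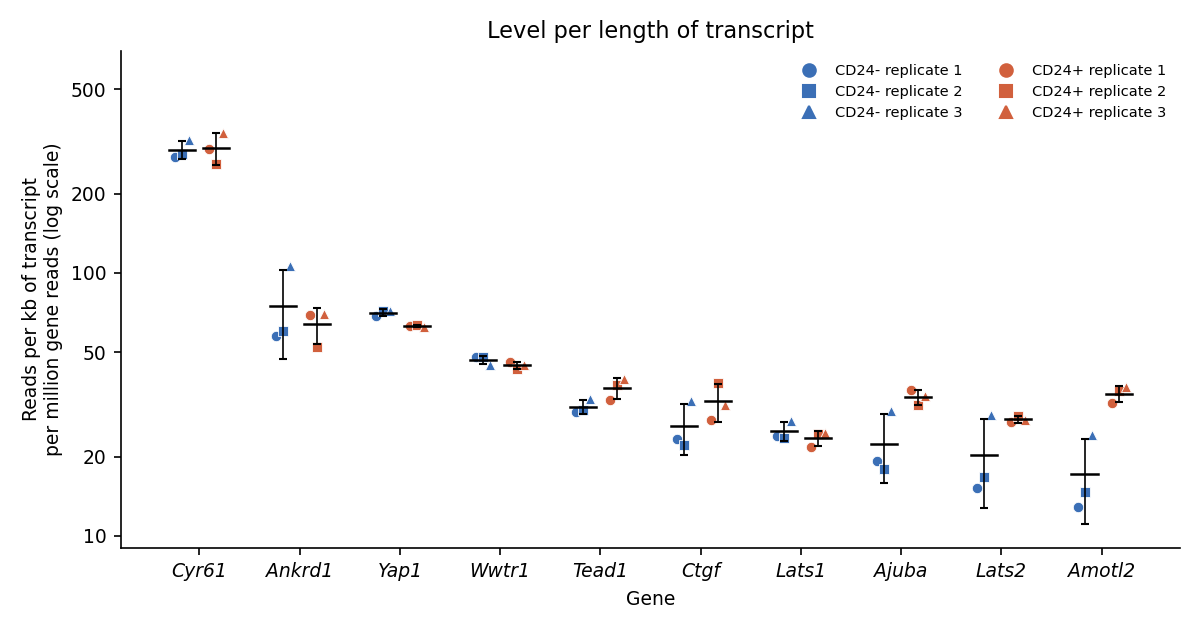
Level of each Hippo pathway gene and YAP target per length of transcript, in reads per kb and 1000000 gene reads (RPKM) on a log scale. Points are the 6 libraries, blue for CD24- and orange for CD24+ cells, with the mean as a line and the SD as bars. Cyr61 lies above 250 RPKM in every library, and Amotl2 moves from the lowest mean of the CD24- cells to 34.8 RPKM in CD24+ cells.

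Between the groups, Amotl2, Ajuba and Lats2 were higher in CD24+ cells and no member with an annotation was lower, at an adjusted p below 0.05 (edgeR). That is 3 of 9 genes, beside 46.1% of all genes tested, of which 23.8% were higher and 22.3% lower. Yap1 and Ankrd1 were lower without passing this threshold, at an unadjusted p of 0.032 and 0.049 (edgeR). DESeq2 called Yap1 lower, in a setting where 2513 of all 12561 genes were called lower. The median log2 fold-change was 0.10 over the 9 genes and 0.02 over all genes. The CPM values of the groups did not overlap for Amotl2 and Ajuba, higher in CD24+ cells, and for Yap1, lower, where 29.7% and 27.6% of all genes lay apart in these directions. Together, 57.3% of all genes lay apart. Restricted to reads in transcripts of the gene, Amotl2 and Ajuba were higher and Yap1 lower, or 3 of 9 genes beside 46.9% of all genes, 22.6% of all being lower. On reads of 1 GENCODE gene, which adds Lats1, Amotl2 and Ajuba were called, or 2 of 10 genes beside 45.6%.

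**Figure D2:**
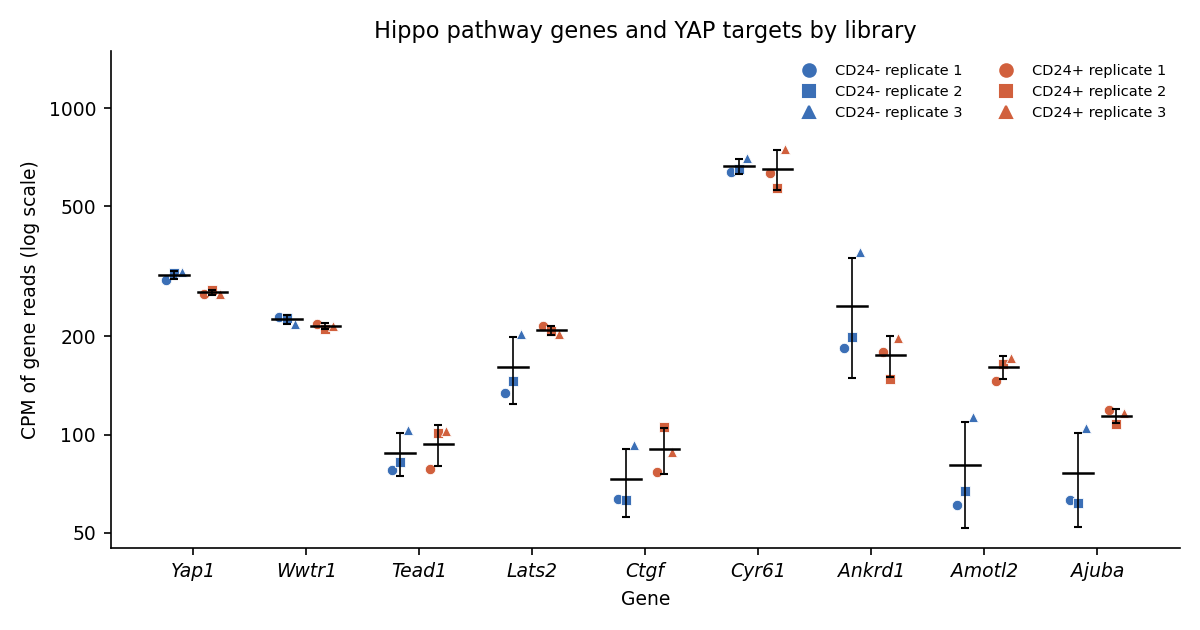
CPM of the 9 annotated genes on a log scale. Points are libraries, blue for CD24- and orange for CD24+ cells, with the mean as a line and the SD as bars. The CD24+ libraries of Amotl2 lie between 146 and 172 CPM, above all CD24- libraries, and CD24- replicate 3 (blue triangle) lies apart from CD24- replicates 1 and 2 for Lats2, Ctgf, Ankrd1, Amotl2 and Ajuba.

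Amotl2, an angiomotin family scaffold that binds YAP and is also its target, changed most. It had 61.0, 67.3 and 113 CPM in CD24- replicates 1, 2 and 3 and 146, 165 and 172 CPM in CD24+ replicates 1, 2 and 3. All CD24+ libraries lay above all CD24- libraries, and CD24- replicate 3 was the nearest to them. The log2 fold-change was 1.01 (edgeR, SE 0.20, adjusted p = 0.0019). It passed the threshold in all 16 other settings, with log2 fold-changes between 0.57 and 1.33.

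Ajuba, a LIM-domain protein that restrains the LATS kinases, had 63.3, 61.7 and 105 CPM in CD24- cells and 119, 108 and 117 CPM in CD24+ cells. The groups did not overlap, but CD24- replicate 3 came within a few CPM of CD24+ replicate 2. The log2 fold-change was 0.58 (edgeR, SE 0.18, adjusted p = 0.021). Leaving out CD24- replicate 1, CD24- replicate 2, CD24+ replicate 1 or CD24+ replicate 3 ended the call, with log2 fold-changes of 0.44 to 0.55 (edgeR, adjusted p from 0.069 to 0.080). Without CD24- replicate 3 it was 0.87 (edgeR, adjusted p = 2.3e-05). With median coverage and a regularizer of 10, modelled on the study's steps, it was 0.34 (limma, adjusted p = 0.014), the lowest of its settings.

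Yap1 had 298, 312 and 315 CPM in CD24- cells and 269.6, 278 and 270.3 CPM in CD24+ cells. All CD24+ values lay below all CD24- values, with a log2 fold-change of -0.18 (SE 0.07) that did not pass the threshold (adjusted p = 0.066, edgeR). It passed in 4 other settings, the lowest adjusted p being 0.038 with totals of all mapped reads. Wwtr1 had 229.9, 228 and 218 CPM in CD24- and 219, 210.0 and 216 CPM in CD24+ cells, and its groups overlapped. Its log2 fold-change was -0.07 (edgeR, SE 0.07, adjusted p = 0.448). The log2 ratio of Wwtr1 to Yap1 reads within a library, which does not depend on scaling, was -0.45 ± 0.08 in CD24- and -0.34 ± 0.05 in CD24+ cells. The difference of 0.11 gave a two-sided exact permutation p of 0.2, where 3 libraries against 3 cannot go below 0.1.

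Tead1 had 78.1, 82.5 and 103 CPM in CD24- cells and 78.2, 101 and 102 CPM in CD24+ cells, and CD24+ replicate 1 lay level with the lowest CD24- library. The log2 fold-change was 0.10 (edgeR, SE 0.13, adjusted p = 0.540), and ran from 0.021 without CD24- replicate 1 to 0.24 without CD24- replicate 3, with no call. Its annotation held only part of its reads. Of 25232 reads that match a Tead1 transcript, 22.0% were annotated to Tead1. In its representative transcript 89.1% to 90.8% of the reads lay in the 3' untranslated part. That transcript is 9964 nt long with a coding part of only 1308 nt, so most of its length is untranslated. Counted as all reads that match transcripts of Tead1 and of no other GENCODE gene, the log2 fold-change was 0.23 (edgeR, SE 0.10, adjusted p = 0.076).

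Lats2, a kinase that inactivates YAP and TAZ, had 134, 146 and 204 CPM in CD24- cells and 216, 207 and 204 CPM in CD24+ cells. CD24- replicate 3 lay within the range of the CD24+ libraries, so the groups overlapped. The log2 fold-change was 0.37 (edgeR, SE 0.14, adjusted p = 0.046). Leaving out any library but CD24- replicate 3 ended the call, with log2 fold-changes of 0.25 to 0.38 and adjusted p from 0.089 to 0.179, as did library totals without TMM (adjusted p = 0.051, edgeR). Part of the reads match no Lats2 transcript. Between 22.7% and 38.0% of the reads annotated to Lats2 match a transcript of Rpl12, a protein of the large ribosomal subunit, and none of Lats2. GENCODE places a processed pseudogene, Gm20430, inside the Lats2 gene (GRCm38, chr14:57698013-57698219), and a protein-coding gene, Gm49361, overlaps Lats2 on the same strand. Whether these reads came from Lats2, the pseudogene or Rpl12 was not tested.

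The most frequent read annotated to Lats2 is shown because it is one of these Rpl12 matches. It was deposited at chr14:58317008-58317054 of mm9 and counted 1055 times, with 154, 101 and 127 reads in the CD24- and 122, 257 and 294 in the CD24+ libraries, before scaling for depth.
Most frequent read annotated to Lats2: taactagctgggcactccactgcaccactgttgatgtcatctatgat
Reads in a Lats2 transcript alone came to 79.0, 86.9 and 150.2 CPM in CD24- cells and 140.1, 149 and 143 CPM in CD24+ cells. With reads restricted in this way for every gene, the log2 fold-change of Lats2 was 0.43 (SE 0.20) and did not pass the threshold (adjusted p = 0.107, edgeR). CD24- replicate 3 again stood with the CD24+ libraries. Without it, and on the deposited annotation, the log2 fold-change was 0.58 (edgeR, SE 0.08, adjusted p = 2.8e-04).

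**Figure D3:**
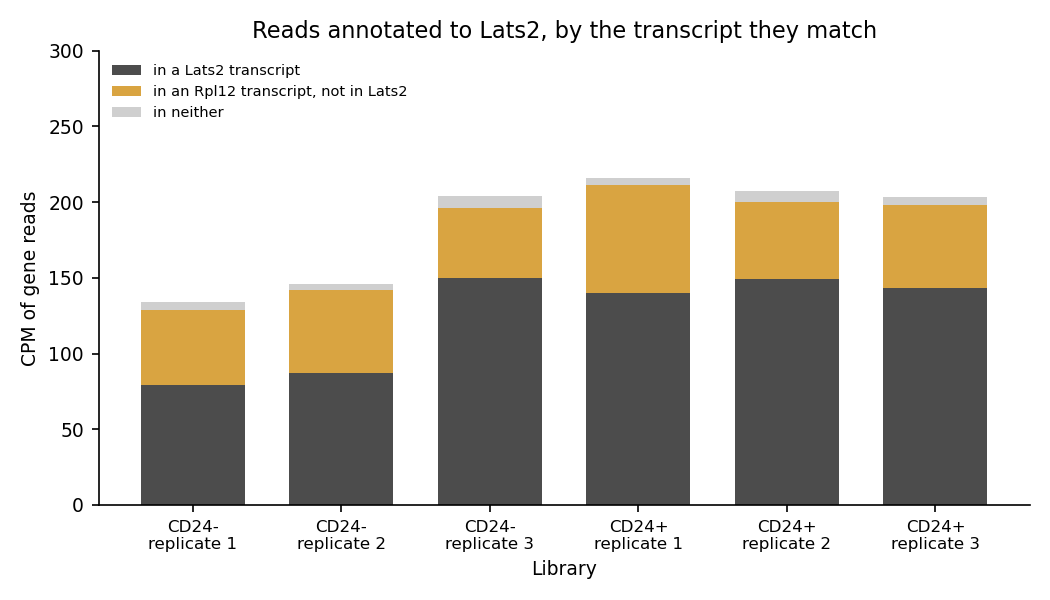
Reads annotated to Lats2 in each library, in CPM from 0, split by the transcripts that hold their sequence. Dark bars are reads in a Lats2 transcript, yellow those in an Rpl12 transcript and not in Lats2, and light grey those in neither. The yellow part is 46.2 to 71.0 CPM in all 6 libraries, and the dark part of CD24- replicate 3 is as high as in the CD24+ libraries.

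Lats1, the paralog of Lats2, had 12667 reads that match its transcripts, of which 96.3% carried no annotation and the rest another name. Its level was 24.1, 23.5 and 27.3 RPKM in CD24- and 21.8, 24.4 and 24.5 RPKM in CD24+ cells, with overlap. On reads that match transcripts of 1 GENCODE gene, its log2 fold-change was -0.10 (edgeR, SE 0.09, adjusted p = 0.390), over 12116 genes tested. The log2 ratio of Lats2 to Lats1 reads, each in its representative transcript, was -1.14, -0.96 and -0.39 in CD24- and -0.17, -0.24 and -0.31 in CD24+ cells. All CD24+ ratios lay above the CD24- ratios, with a mean difference of 0.59 and a two-sided exact permutation p of 0.1, the smallest that 3 against 3 allows.

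The secreted targets Ctgf and Cyr61, matricellular proteins of one family, did not pass the threshold. Ctgf had 63.5, 63.0 and 93.1 CPM in CD24- cells and 77.0, 106 and 88.7 CPM in CD24+ cells, so that CD24- replicate 3 lay among the CD24+ libraries. Its log2 fold-change was 0.32 (edgeR, SE 0.16, adjusted p = 0.135), and 0.53 (adjusted p = 0.0060) without CD24- replicate 3. Without CD24+ replicate 2 it was 0.18 (edgeR, adjusted p = 0.420). Cyr61 had 640.0, 649.7 and 703 CPM against 635, 571 and 751 CPM, with the CD24- values inside the range of the CD24+ values. Its log2 fold-change was -0.03 (edgeR, SE 0.10, adjusted p = 0.856), and its sign turned in 3 other settings, all of them with changes under 0.06. A processed transcript, Gm15270, overlaps Ctgf on the opposite strand and the counts carry no strand.

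Ankrd1 had 184, 199 and 363 CPM in CD24- cells and 179, 148 and 198 CPM in CD24+ cells. CD24- replicate 3 lay far above the 5 other libraries, which overlapped. The log2 fold-change was -0.50 (edgeR, SE 0.23, adjusted p = 0.092), and -0.13 (adjusted p = 0.389) without that library. The share of Ankrd1 reads found in one of its transcripts was 69.3% to 71.9% in CD24- and 76.7% to 82.7% in CD24+ cells, without overlap. Over all gene reads of a library this share was 90.8% to 91.6% in CD24- and 92.1% to 92.7% in CD24+ cells, also without overlap. Counted in its transcripts, Ankrd1 changed by -0.36 on the log2 scale (edgeR, SE 0.23, adjusted p = 0.213).

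CD24- replicate 3 thus differed from CD24- replicates 1 and 2 in many of these genes. Its CPM was 1.90 times the mean of the other CD24- libraries for Ankrd1, 1.77 for Amotl2, 1.67 for Ajuba, 1.47 for Ctgf, 1.46 for Lats2, 1.29 for Tead1, 1.09 for Cyr61, 1.03 for Yap1 and 0.95 for Wwtr1. The ratio was 1.4 or more in 5 of these 9 genes and in 478 (4.30%) of all genes tested, whose median ratio was 0.99. It was 1.4 or more in 2 of 34 other Hippo components and in 3 of 20 other YAP targets. The level of 1.4 was not part of the planned tests and falls between the ratios of Tead1 and Lats2, so these counts are descriptive only. Without this library 4 of the 9 genes were called, all higher in CD24+ cells, beside 47.4% of all genes and 24.9% that were higher. They were Amotl2, Ajuba, Lats2 and Ctgf. The CD24- libraries left in that fit, replicates 1 and 2, differed least of all pairs within a group. Their chi-square was 1.75 for each degree of freedom, beside 9.69 to 15.9 for the other pairs.

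**Figure D4:**
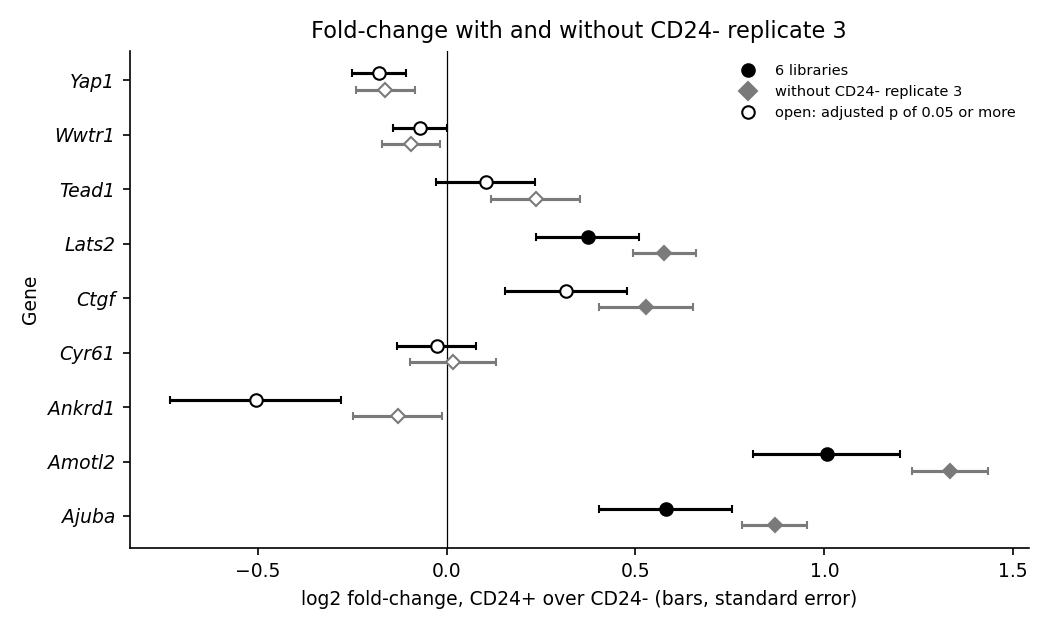
log2 fold-change of the 9 annotated genes in CD24+ over CD24- cells, with standard errors derived from the edgeR F test. Black circles use all 6 libraries and grey diamonds leave out CD24- replicate 3, with open symbols for an adjusted p of 0.05 or more. Without that library the change of Amotl2 goes from 1.01 to 1.33 and that of Ankrd1 from -0.50 to -0.13.

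The other components of the pathway, taken from a list of 39 genes, had an annotation for 35 and were tested for 34. In CD24+ cells 15 rose and 3 fell, which is 52.9% beside 46.1% of all genes. By direction, 44.1% rose and 8.8% fell, beside 23.8% and 22.3% of all genes. The median log2 fold-change of the 34 was 0.21. Stk3 (the gene of MST2) rose from 69.1 ± 3.61 to 108 ± 8.95 CPM, a log2 fold-change of 0.65 (adjusted p = 2.1e-04, edgeR). Smaller increases were called for Stk4, the gene of MST1 (0.23), Sav1 (0.25) and Nf2, the upstream activator Merlin (0.40). The call was lost in 9 of 16 other settings for Stk4, where the log2 fold-change was 0.080 with median coverage and 0.20 to 0.25 in the others. It was lost in 8 of 16 for Sav1, at 0.12 with each distinct sequence counted once and 0.20 to 0.25 in the others. The changes of Mob1a (-0.17, adjusted p = 0.111) and Mob1b (0.15, adjusted p = 0.332) did not pass. Without CD24- replicate 3, Mob1b was called (0.28, adjusted p = 0.038, edgeR) and Mob1a changed by -0.10, while Mob1b changed by 0.054 without CD24- replicate 2.

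The TEAD family differed by member. Tead3 had 3.90, 3.41 and 2.48 CPM in CD24- and 23.5, 19.4 and 24.0 CPM in CD24+ cells, a log2 fold-change of 2.76 (edgeR, SE 0.18, adjusted p = 1.2e-06). Tead2 rose from 2.01 ± 0.628 to 6.79 ± 0.509 CPM (1.74), whereas Tead4 (58.0 ± 12.5 and 53.8 ± 4.64 CPM) had a log2 fold-change of -0.10 (adjusted p = 0.576). Per length, Tead1 remained the highest of the family, since Tead3 reached 6.89 ± 0.870 RPKM and Tead2 1.94 ± 0.175 RPKM in CD24+ cells, beside 16.8 ± 1.13 RPKM for Tead4.

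Among the components with a deposited annotation, the largest increases were those of Fat4 and Wtip. Fat4, an atypical cadherin, had 3.26, 4.17 and 5.07 CPM in CD24- and 50.8, 71.4 and 71.4 CPM in CD24+ cells, a log2 fold-change of 3.97 (edgeR, SE 0.19, adjusted p = 1.5e-07). Wtip, a relative of Ajuba, rose from 1.12 ± 0.388 to 16.8 ± 2.50 CPM (3.86). Vgll3, a cofactor of TEAD, had no annotation and is named after its values were seen. On reads of 1 GENCODE gene its log2 fold-change was 3.91 (edgeR, SE 0.17, adjusted p = 8.8e-08), beside 3.91 for Fat4 and 3.89 for Wtip counted in the same way. Taok2, an upstream kinase also without an annotation, was called lower in this count (-0.23, adjusted p = 0.046, edgeR). Stk38l, a kinase related to LATS, rose by 1.27 on the log2 scale. Wwc1, the gene of KIBRA, which activates the LATS kinases, fell from 51.6 ± 10.1 to 12.4 ± 1.48 CPM, a log2 fold-change of -2.08 (edgeR, SE 0.15, adjusted p = 2.6e-06). By deposited annotation, the other decreases called were those of the kinase Csnk1e (-0.55) and of Vgll4, which competes with YAP for TEAD (-0.31). The call of Vgll4 was lost in 7 of 16 other settings, at -0.32 to -0.19. The median coverage setting has the study's regularizer of 10, which by construction shrinks the change of low genes. With it the log2 fold-change was -0.20 for Wwc1, 0.36 for Wtip, 0.43 for Tead3, 0.18 for Stk38l and 0.40 for Stk3, all still called by limma. Fat4 was not among the genes tested in that setting.

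Of 24 other YAP target genes, 22 had an annotation and 20 were tested. In CD24+ cells 14 were higher and 1 lower, or 75% beside 46.1% of all genes, with a median log2 fold-change of 1.07. By direction, 70% were higher and 5% lower, beside 23.8% and 22.3% of all genes. Median coverage called 8 higher and 2 lower of 15 tested, beside 1564 higher and 1731 lower of all 9414 genes tested in that setting (limma). This list, like that of the components, was drawn up with earlier results of these data known. The receptor tyrosine kinase Axl had 73.8, 77.5 and 85.9 CPM in CD24- and 672, 689.8 and 646 CPM in CD24+ cells, a log2 fold-change of 3.08 (edgeR, SE 0.09, adjusted p = 8.0e-09). Nt5e, the surface enzyme CD73, rose from 4.19 ± 0.610 to 35.7 ± 2.40 CPM (3.08). Fstl1, Foxf2 and Inhba, with log2 fold-changes of 4.67, 3.58 and 2.51, stayed under 8 CPM in every library by deposited annotation. Fstl1 had 0.316, 0.0948 and 0 CPM in the CD24- libraries, and its log2 fold-change ran from 3.22 on reads of 1 GENCODE gene to 5.94 without CD24- replicate 1. That of Inhba was 3.11 without CD24- replicate 3 and that of Foxf2 4.08 without CD24- replicate 2. Areg, an EGF receptor ligand, fell from 96.7 ± 10.5 to 48.9 ± 10.7 CPM (-1.01, adjusted p = 2.6e-04, edgeR). With median coverage the log2 fold-change was 2.28 for Axl, 0.62 for Nt5e and -0.51 for Areg, all called by limma. Of the 5 target genes of the set 2 were called, and the difference between the lists was not tested.

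**Figure D5:**
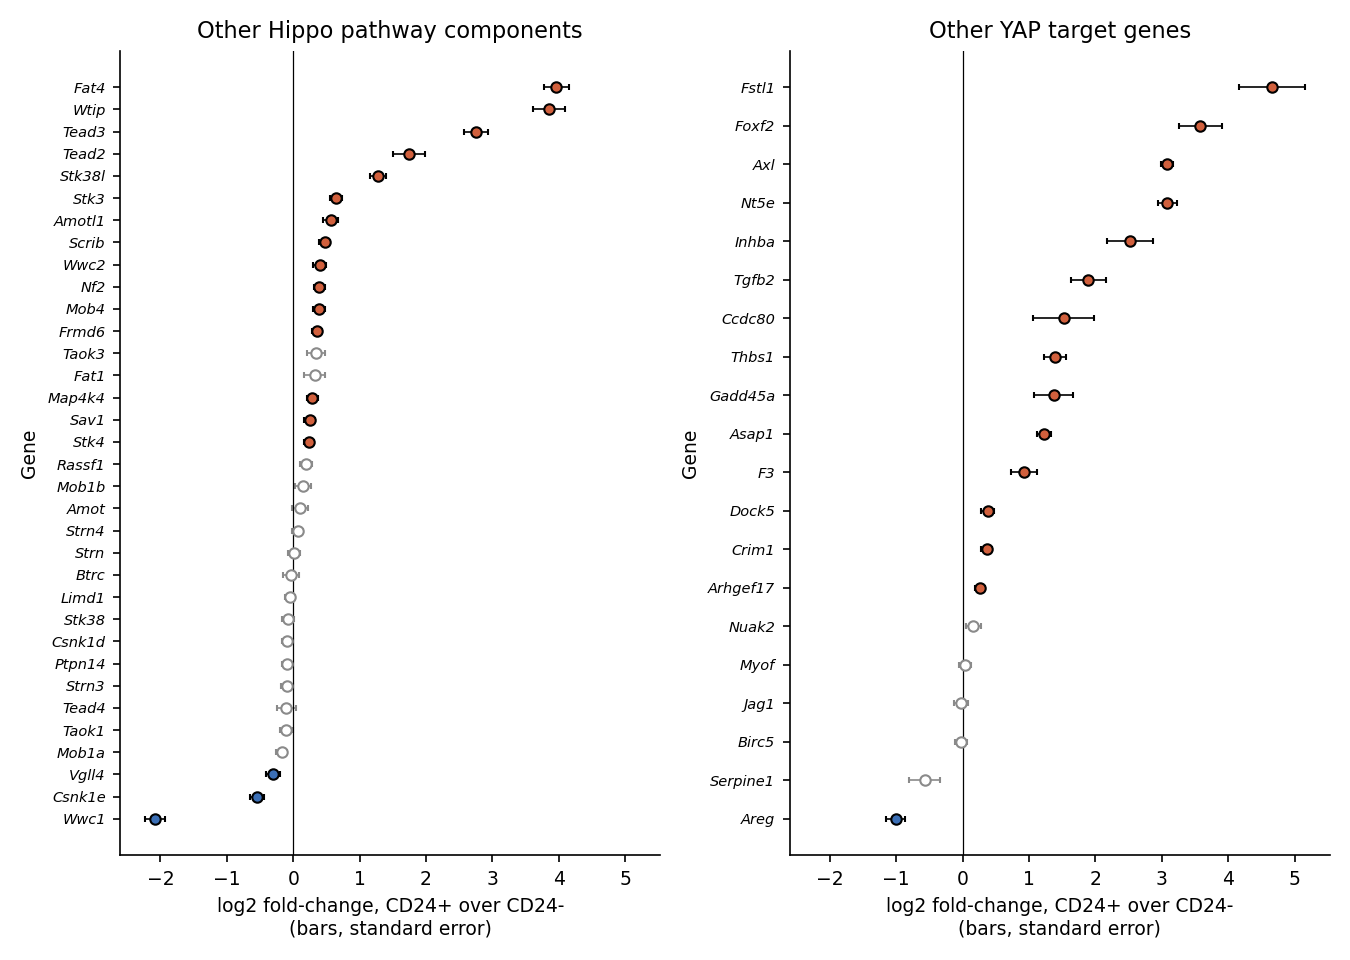
log2 fold-change in CD24+ over CD24- cells for the 34 other Hippo components tested (left) and the 20 other YAP targets tested (right). Bars are standard errors derived from the edgeR F test. Filled circles passed an adjusted p of 0.05 in edgeR, orange for higher and blue for lower. The median is 0.21 for the components, with Fat4 and Wtip near 4, and 1.07 for the targets.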

How the data were processed

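Each of the 6 libraries came from the messenger RNA of 1 plate, 3 for CD24- and 3 for CD24+ Mvt1 cells. The authors sequenced 51 bp from one end, kept the inner 47 nt, merged identical reads and placed each distinct read on the mouse genome where it matched exactly, with 1 location and 1 annotation per read. They deposited the count of every mapped sequence in each library, neither normalized nor pooled. The submitters' processing notes name mm9. The mapping tool and the gene models behind the annotation were not given in the sources used here. Reads over exon junctions are mostly lost to exact matching, and near-identical copies of a gene can take its reads.

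The deposited counts were summed per gene annotation, and reads of repeats, of small RNA or without annotation were left out. Columns of other samples numbered 0. Genes that passed filterByExpr were tested with edgeR 4.0.16 in R 4.3.3, by its quasi-likelihood test after TMM scaling, and p was adjusted by Benjamini-Hochberg. A gene was called where its adjusted p was below 0.05. Reads were also matched by exact sequence to GENCODE M21 transcripts (GRCm38), and no coordinates were converted between builds. RPKM and the Lats2 to Lats1 ratio use 1 transcript per gene and reads of any annotation, because Lats1 had none. A read that matches several places of a transcript was counted once, and reads that also match another gene were not left out. Within-library ratios were compared by exact permutation tests (SciPy 1.17.1). The edgeR, DESeq2 and limma fits were tested on simulated counts with large known changes. Read matching, RPKM and the permutation tests were not tested in this way, nor were changes as small as those of most members.

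Named genes were Cd24a, the 10 members, the core kinases and TEAD genes, and up to 5 of the largest increases and decreases among called genes of each of the 2 other lists. The members and lists were chosen with earlier results of these data known. Alternatives were DESeq2 1.42.0, 2 other filters, 2 other scalings, each distinct sequence counted once, transcript reads only, the study's median coverage with quantile normalization and a regularizer of 10 (limma 3.58.1), the replicate number as a block and each library left out. Counting reads of exactly 1 GENCODE gene was added after the data were seen. Libraries of a group differed by more than counting noise. The chi-square for each degree of freedom was 1.75 between CD24- replicates 1 and 2 and 9.69 to 15.9 between the other pairs of a group. Each library was taken as 1 replicate.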

Additional observations from a re-analysis of the deposited data

Results flagged for a closer look

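Reads outside the deposited gene annotations held signal for genes of the set. Of the reads that match Lats1 transcripts, 12197 had no gene annotation, so Lats1 is missing from any count by annotation. Of the reads that match Tead1 transcripts, 17347 had no gene annotation, between 66.6% and 71.3% in a library. No other member had more than 1.5% of its transcript reads without an annotation over all libraries. The source of the annotation was not tested.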

How the results depend on the processing

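The totals of called genes, both directions together, stayed within 1.5 times of the reported values in all settings run except those named here. Counting each distinct sequence once called 2146 genes higher and 1549 lower, in place of 2652 and 2478, and median coverage called 8 other YAP targets higher and 2 lower. 1 member, Yap1 or Ankrd1, was called lower in 7 settings, and 2 other YAP targets in place of 1 with DESeq2, with no filter and without CD24- replicate 2. Median coverage with quantile normalization called 3295 genes in place of 5130, 1564 higher and 1731 lower, where 4069 to 5358 were called with a library left out. Of the 9 members, between 1 and 4 were called with a library left out, and 1 without CD24- replicate 2, without CD24+ replicate 1 or without CD24+ replicate 3. With a library left out, 14 to 18 other Hippo components and 13 to 16 other YAP targets were called, the log2 fold-change of Cd24a was 2.71 to 3.05 (1.37 with median coverage and its regularizer), and the differences in log2 ratio were 0.07 to 0.15 for Wwtr1 to Yap1 and 0.44 to 0.81 for Lats2 to Lats1. Leaving out a library in the ratios allows no p below 0.2.

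Amotl2 was called in all settings and Ajuba in all with 6 libraries. Lats2 lost its call in 11 of 16 settings, with adjusted p from 0.051 to 0.179. Its log2 fold-change in these ran from 0.24 with median coverage to 0.43 with transcript reads only. Yap1 gained a call in 4, Ankrd1 in 3, Ctgf in 1 and Mob1b in 1. The cause was not tested. The sign of Cyr61 turned with reads of 1 GENCODE gene (0.0021) and over the left-out libraries (-0.15 to 0.054), and that of Tead4 without CD24- replicate 3 (-0.20 to 0.088 over the left-out libraries).

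Deviations of same-numbered libraries correlated at 0.014, -0.28 and -0.33, and the libraries were not taken as paired in the main fit. Differently numbered libraries were not compared in this way, so whether the numbers mark a shared processing was not tested. With the replicate number as a block, 4493 of 11125 genes and 4 of 9 members were called, Ankrd1 being added (-0.45, adjusted p = 0.021, edgeR). The paired exact test of the ratios gave p = 0.25, the smallest it allows. Reads in a transcript are the reported basis of the Lats2 to Lats1 ratio, so that alternative was not run separately. CD24+ replicate 1, with the fewest reads, carries the largest counting error, and genes under about 1 CPM rest on few reads.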
